A study of Homo sapiens with 15 samples.

Results

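Metallothioneins are small cysteine-rich proteins that bind zinc and copper, and SLC30A1 is the zinc exporter of the plasma membrane. The members described here are 7 genes: the metallothioneins MT1X, MT2A, MT1E, MT1F and MT1G, the exporter SLC30A1, and MTF1, the zinc-sensing transcription factor of this pathway. They are 7 of the 33367 genes of the table, and they were chosen by the read counts of that experiment in which ERG was repressed, where MT1X and MT2A stood higher. Their values in that comparison are therefore a description and carry no test. All 7 were in the table. MT1X, MT2A, SLC30A1 and MTF1 had reads and passed the filter on low counts in both experiments, whereas MT1E, MT1F and MT1G had no read in any library.

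The study sequenced RNA of Reh, a line from a human B-cell precursor leukaemia, in 15 libraries. Reh carries the ETV6::RUNX1 fusion and has no normal ETV6. In the first experiment the cells carried a doxycycline-inducible vector, with 3 libraries each for V5-tagged wild-type ETV6 (ETV6_WT), V5-tagged ETV6 R399C (ETV6_R399C) and the fluorescent protein tagBFP, and all had 500 ng/ml doxycycline for 48 h. In the second, CRISPR interference (CRISPRi), all cells carried inducible dCas9-KRAB, a repressor on an inactive Cas9. They also held a guide for the ERG promoter (sgERG) or a non-targeting guide (sgCtrl), were sorted by a fluorescent reporter and had 500 ng/ml doxycycline for 72 h, with 3 libraries each. The labels describe no single-cell clones and do not say whether the libraries of a group came from separate cultures, so p-values measure only the spread between these libraries.

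When free zinc in a cell rises, MTF1 binds zinc, enters the nucleus and occupies metal response elements, short DNA motifs in the promoters of metallothionein genes and of SLC30A1. The metallothioneins then hold the metal and SLC30A1 removes it across the plasma membrane. Metallothioneins are also known to respond to cadmium, copper, glucocorticoids and oxidative stress, and the human genes lie in a cluster on chromosome 16. Members of the family are close copies, so reads can be shared between them.

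The coding sequences of the 2 metallothioneins with reads show how close the copies are. Capitals in the second line mark the bases at which MT2A differs from MT1X (GENCODE 29 transcripts MT1X-201 and MT2A-201, hg38, start codon to stop codon, 5′ to 3′).
MT1X: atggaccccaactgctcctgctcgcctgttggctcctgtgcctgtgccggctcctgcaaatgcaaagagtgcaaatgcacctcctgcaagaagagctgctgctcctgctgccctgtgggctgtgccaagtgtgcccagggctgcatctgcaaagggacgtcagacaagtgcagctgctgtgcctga
MT2A: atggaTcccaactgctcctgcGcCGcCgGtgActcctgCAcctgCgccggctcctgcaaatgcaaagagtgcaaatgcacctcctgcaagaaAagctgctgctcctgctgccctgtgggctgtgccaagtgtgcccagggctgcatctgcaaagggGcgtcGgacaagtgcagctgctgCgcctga
Both are 186 bases long and encode 61 amino acids, and they differ at 14 bases (92.5% identical). The coding sequences of MT1E, MT1F and MT1G are 90.9%, 88.7% and 91.4% identical to that of MT1X. Outside the coding part the transcripts diverge. Of all 31-base words of MT1X-201, 51.9% occurred in no other GENCODE 29 gene, and the share was 87.8% for MT2A-201, 84.7% for MT1E-201, 91.7% for MT1F-201 and 68.5% for MT1G-201. Each of the 5 genes thus had sequence by which reads could be told from those of its copies. GENCODE 29 also lists AC026461.1 over MT1X on the same strand, and that gene was not analysed here.

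The promoters of the members were searched for the core of the metal response element, TGCACNC or TGCGCNC, on both strands of the 250 bases before the RefSeq start (GRCh38.p14). The table of RefSeq promoters held 4 of the 7 members, and MT1E, MT1F and MT1G were not matched. The sequences below show where the matches lie, in capitals, read on the strand of the gene. A match on the other strand therefore appears as its reverse complement. For MT1X the part that GENCODE 29 places outside the gene is printed, at chr16:56682220-56682423 on the forward strand. For SLC30A1 all 250 bases are printed, at chr1:211579162-211579411 on the reverse strand.
MT1X: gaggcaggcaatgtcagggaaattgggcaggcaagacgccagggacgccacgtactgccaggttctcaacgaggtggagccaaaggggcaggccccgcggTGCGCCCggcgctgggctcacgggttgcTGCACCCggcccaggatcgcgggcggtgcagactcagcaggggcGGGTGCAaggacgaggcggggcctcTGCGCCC
SLC30A1: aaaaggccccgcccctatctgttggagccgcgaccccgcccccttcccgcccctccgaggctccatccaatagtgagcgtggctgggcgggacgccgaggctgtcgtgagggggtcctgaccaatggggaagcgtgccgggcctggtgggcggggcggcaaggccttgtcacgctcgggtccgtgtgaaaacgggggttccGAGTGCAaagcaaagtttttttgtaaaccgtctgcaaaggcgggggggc
The MT1X window held 4 matches, 3 of them on the strand of the gene. The MT2A window held 7, of which 5 were on the strand of the gene. GENCODE 29 counts the MT2A window as part of the first exon of MT2A-201, which begins 385 bases before the RefSeq start, and it is not printed. The SLC30A1 window held 1 match, on the other strand, and the MTF1 window none. The RefSeq start of SLC30A1 is at 211579161, upstream of the GENCODE 29 start at 211578742. The bases just before that GENCODE start therefore lay outside the window and were not searched. Of 35116 RefSeq promoter windows of this length, 24.8% held at least 1 match, 0.37% at least 4 and 0.0313% at least 7. The ETS core GGAA, the letters that ETV6 and ERG are known to recognise, was searched in the same way on both strands. It occurred 2 times each at MT1X and MT2A, 3 times at SLC30A1 and 7 times at MTF1, and 92.7% of all windows held at least 1. The doubled form GGAAGGAA was in none of the 4 windows and in 3.06% of all windows. These matches describe letters, not binding, which was not measured here.

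**Figure D1:**
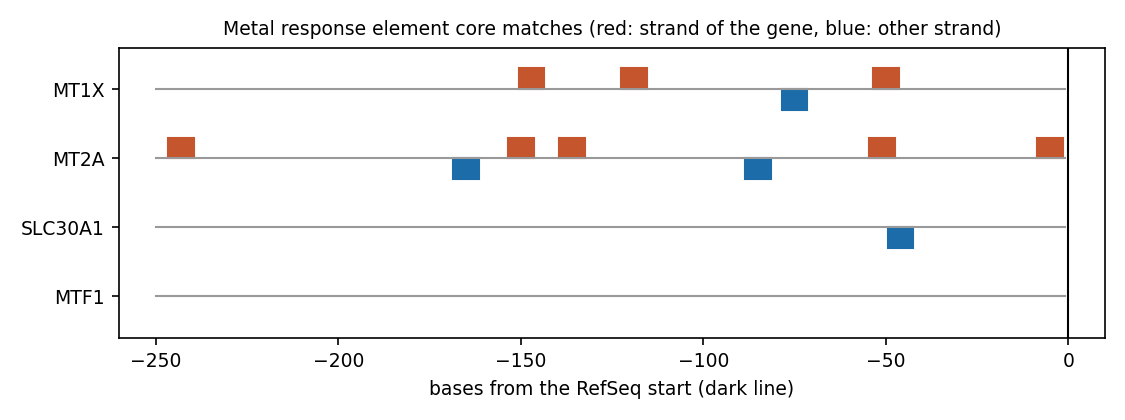
Position of each match to the metal response element core in the 250 bases before the RefSeq start of MT1X, MT2A, SLC30A1 and MTF1, in bases from the start (dark line). Red boxes above a line are on the strand of the gene and blue boxes below it on the other strand; MT2A holds 7, MT1X 4, SLC30A1 1 and MTF1 none.

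The labels were checked on the genes the study acted on. ERG stood at 529, 527 and 517 CPM (reads of a gene scaled to the library's total over named genes, after TMM adjustment between libraries) in the sgCtrl libraries and at 104.1, 109.6 and 101.5 in the sgERG libraries. ETV6, at 5.86 ± 0.327 CPM with tagBFP, reached 486 ± 18.1 CPM in the wild-type group and 373 ± 14.7 CPM in the R399C group (SD, n = 3). Libraries held 22040338 to 34046795 reads in the ETV6 experiment and 31881225 to 52481351 in CRISPRi. Mitochondrially encoded genes took 0.884% to 1.316% and 2.408% to 3.077% of the reads in these experiments. Of 10 B-lineage markers, 9 were at 1 TPM or more in every library, and VPREB1 was listed at 0. The T-cell markers summed to at most 1.15 TPM and the erythroid markers to at most 0.439, with CD3D, CD2, HBA1, HBB and ALAS2 at 0 throughout. In RNA from whole populations, fewer cells of a type and less RNA per cell cannot be told apart.

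MT1X (ENSG00000187193, chromosome 16, 56682424 to 56684196, forward strand, hg38) was the metallothionein with the highest level per length. Its TPM, Salmon's level per transcript length, was 138 ± 10.96 in the tagBFP group, 134 ± 13.3 for ETV6_WT, 149.9 ± 11.7 for ETV6_R399C, 61.4 ± 6.41 for sgCtrl and 255 ± 16.8 for sgERG (SD, n = 3 each). MT2A (ENSG00000125148, chromosome 16, 56608199 to 56609497, forward strand) stood at 42.9 ± 2.24, 61.9 ± 4.57, 58.6 ± 5.03, 30.1 ± 1.199 and 94.3 ± 3.79 TPM in the same order. The zinc exporter SLC30A1 (ENSG00000170385, chromosome 1, 211571568 to 211578742, reverse strand) stood, in that order, at 7.69 ± 0.1495, 8.56 ± 0.379, 9.13 ± 0.211, 7.34 ± 0.0430 and 9.86 ± 0.0723 TPM. MTF1 (ENSG00000188786, chromosome 1, 37809567 to 37859620, reverse strand) had the lowest level, at 4.87 ± 1.02, 3.48 ± 0.0517, 3.91 ± 0.0360, 5.70 ± 0.945 and 5.18 ± 0.182 TPM. In every group MT1X exceeded MT2A per length, and both exceeded SLC30A1 and MTF1 by more than the spread between libraries. The long first exon of MT2A-201 enters its length, so the gap between the 2 metallothioneins depends on that annotation. The gap also depends on the effective length that Salmon gave each transcript. In the tagBFP libraries this was 129 to 136 bases for MT1X-201 and 435 to 452 for MT2A-201.

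The other metallothioneins were silent at this depth. MT1E, MT1F and MT1G lie between MT2A and MT1X (chromosome 16, 56625475 to 56627112, 56657694 to 56660698 and 56666731 to 56668065). A count of 0 allows up to 3 reads, which is 0.0572 to 0.136 CPM, over all reads of a library and before scaling, for counting error only. Of all 21 family genes and pseudogenes in the table, 16 had no read in any of the 15 libraries. The pseudogenes MT1L, MT1P3 and MT1XP1 had 1, 2 and 10 reads over all libraries. MT1X and MT2A had 9353 and 9544 reads over all libraries, so the family sum was in effect the sum of these 2 genes.

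Repression of ERG was the comparison by which the members were chosen, and its values are given without a test. MT1X stood at 8.24, 10.4 and 9.91 CPM in the sgCtrl libraries and at 36.1, 37.9 and 43.5 in the sgERG libraries, a fitted fold of 4.12 (log2 2.04). Every sgERG library was above every sgCtrl library. MT2A stood at 10.1, 10.8 and 10.3 CPM with sgCtrl and at 28.6, 31.6 and 34.6 with sgERG, a fitted fold of 3.04 (log2 1.60). Here too the groups were far apart. Among 13464 genes tested MT1X was 17th and MT2A 48th by the size of the rise, whereas SLC30A1 was 790th and MTF1 5259th. SLC30A1 stood at 31.6, 31.9 and 32.1 CPM with sgCtrl and at 41.0, 42.4 and 43.1 with sgERG, a fitted fold of 1.32 (log2 0.40). The exporter's libraries did not overlap between the groups either, but its difference was far smaller than that of the metallothioneins.

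MTF1 showed no such difference. It stood at 33.9, 30.7 and 30.9 CPM with sgCtrl and at 33.5, 32.1 and 32.9 with sgERG (log2 0.04), and the groups overlapped. The family sum went from 18.3, 21.2 and 20.2 CPM to 64.8, 69.6 and 78.2 CPM, a fitted fold of 3.56 (log2 1.83). Thus 3 of 4 members with reads had all sgERG libraries above all sgCtrl libraries. Over all genes tested, 17% lay so apart in that direction and 14.6% passed the test, 6.89% with a rise and 7.74% with a fall. Since the rule used this comparison, nothing is read from the members' count. Marker levels of other cells were as follows. The 5 stromal and epithelial markers summed to 21.0 to 28.0 TPM with sgCtrl and 28.7 to 33.2 with sgERG, of which COL1A1 alone made up nearly all, and DCN, EPCAM and KRT18 were at 0 in both. The 4 megakaryocyte markers summed to 5.83 to 8.80 and 8.83 to 11.1 TPM, nearly all from ITGA2B, with PF4 at 0. In edgeR's test the 1 stromal marker tested rose and the 1 megakaryocyte marker tested was not called (log2 0.07, none with an unadjusted p below 0.05, none with DESeq2). The B-lineage markers summed to 3780 to 3820 and 3360 to 3450 TPM, and of 9 tested 1 rose and 4 fell. The part of these markers in the metallothionein values was not tested.

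**Figure D2:**
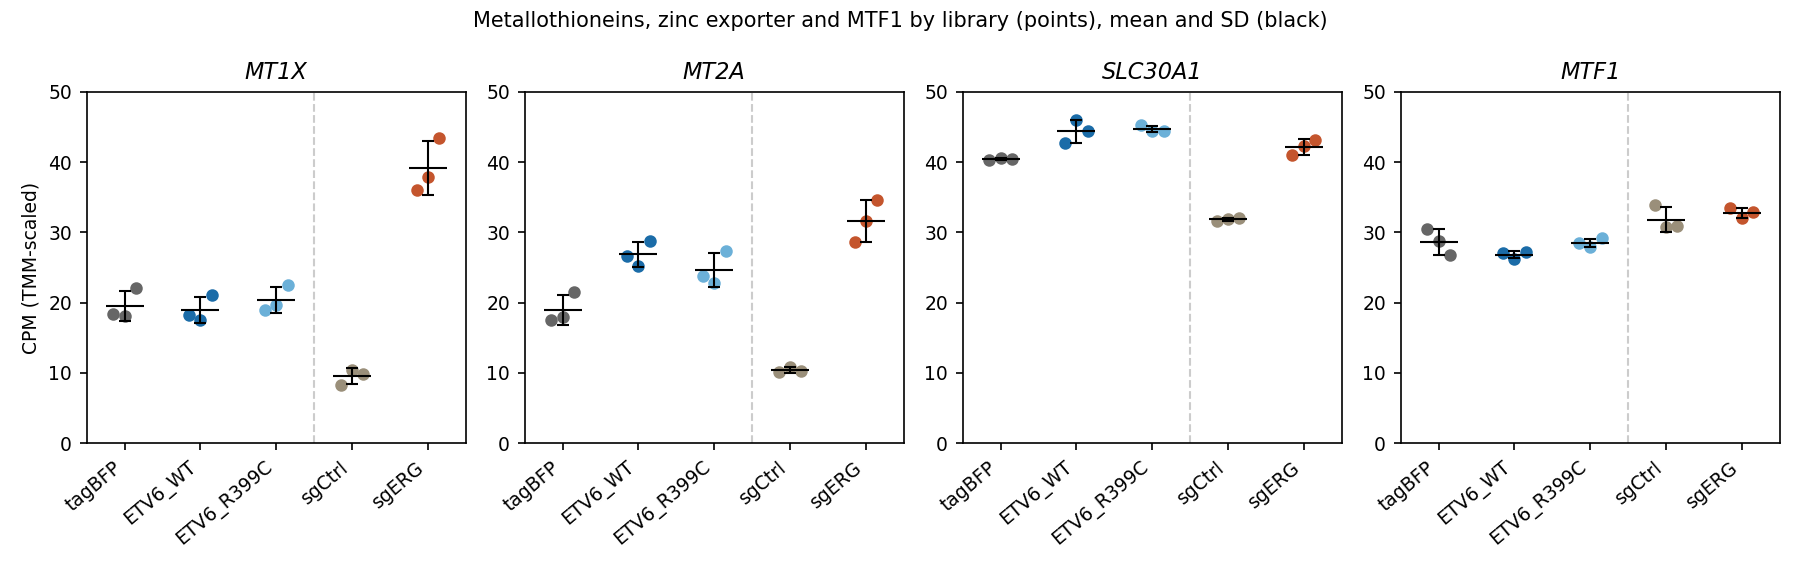
CPM of MT1X, MT2A, SLC30A1 and MTF1 in each of the 15 libraries (points), with the mean and SD of each group of 3 in black; the dashed line separates the ETV6 experiment from CRISPRi. The sgERG libraries sit at 36.1 to 43.5 CPM for MT1X against 8.24 to 10.4 with sgCtrl, and the 5 groups of MTF1 lie between 26.2 and 33.9.

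The rule that chose the members did not use the ETV6 experiment, so its values were tested. Earlier results of these data were known, however, when the members were chosen. With ETV6_WT, MT2A and SLC30A1 rose over tagBFP and MT1X and MTF1 did not pass the test. The 2 of 4 members called compare with 36.5% of 14242 genes called over the whole table, 17.6% with a rise and 18.9% with a fall. The members' median log2 fold change was 0.05, and that of all genes 0.00. A share of this size on 4 genes is near the background and sets the members apart from nothing.

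MT2A stood at 17.5, 17.998 and 21.5 CPM in the tagBFP libraries and at 26.7, 25.2 and 28.7 in the ETV6_WT libraries. All ETV6_WT libraries lay above all tagBFP libraries, as did those of 23.2% of all genes, with 25% the other way round. The rise was 1.42-fold (log2 0.51 ± 0.09 SE, 95% interval 0.31 to 0.70, edgeR's quasi-likelihood test, adjusted p = 0.001008). SLC30A1 stood at 40.3, 40.6 and 40.4 CPM with tagBFP and at 42.8, 46.1 and 44.4 with ETV6_WT, without overlap. It rose 1.10-fold (log2 0.14 ± 0.04 SE, adjusted p = 0.01234 by the same test). This call was lost with DESeq2 (adjusted p = 0.0651). It was also lost without ETV6_WT replicate 2 (log2 0.09, adjusted p = 0.1215) and without tagBFP replicate 1, 2 or 3 (adjusted p = 0.0709, 0.0656 and 0.0502).

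MT1X stood at 18.4, 18.2 and 22.1 CPM with tagBFP and at 18.3, 17.5 and 21.1 with ETV6_WT, and the groups overlapped. Its log2 fold change was -0.04 with a 95% interval of -0.25 to 0.17 (adjusted p = 0.7787), an interval that ends below the whole interval of MT2A. MTF1 stood at 30.5, 28.8 and 26.8 CPM with tagBFP and 27.1, 26.2 and 27.2 with ETV6_WT. Its difference was -0.10 (95% interval -0.21 to 0.02, adjusted p = 0.167). It passed with a fall under an offset for average transcript length (log2 -0.49, adjusted p = 0.0299) and without tagBFP replicate 3 (-0.16, adjusted p = 0.0268). The family sum rose 1.19-fold, from 38.5 ± 4.31 to 45.8 ± 3.69 CPM (SD, n = 3 each), with log2 0.25 ± 0.09 SE and adjusted p = 0.04032, though the libraries of the groups overlapped. It no longer passed with an offset for average transcript length (log2 0.11, adjusted p = 0.4719), without ETV6_WT replicate 1 or 3 (log2 0.24 and 0.19, adjusted p = 0.0946 and 0.1485) or without tagBFP replicate 1 or 2 (log2 0.18 and 0.19, adjusted p = 0.1808 and 0.1732).

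The R399C form carries a substitution in the DNA-binding domain of ETV6. With ETV6_R399C, MT2A and SLC30A1 again rose over tagBFP, so 2 of 4 members were called, beside 40.9% of all genes (18.8% with a rise). This comparison shares its tagBFP libraries with the one before. MT2A stood at 23.8, 22.9 and 27.4 CPM with ETV6_R399C, above all tagBFP libraries. The same held for 24.1% of all genes. It rose 1.31-fold (log2 0.38 ± 0.09 SE, 95% interval 0.19 to 0.58, adjusted p = 0.005101). SLC30A1 stood at 45.3, 44.5 and 44.4 CPM, also without overlap, and rose 1.11-fold (log2 0.15 ± 0.04 SE, adjusted p = 0.007654). MT1X stood at 19.0, 19.7 and 22.5 CPM (log2 0.06, 95% interval -0.15 to 0.27, adjusted p = 0.6509). MTF1 stood at 28.5, 28.0 and 29.2 CPM (log2 -0.01, 95% interval -0.12 to 0.10, adjusted p = 0.9029), and at log2 -0.38 (adjusted p = 0.0667) with the length offset. For both genes the groups overlapped. The family sum of 45.1 ± 4.16 CPM (SD, n = 3) was 1.17-fold that of tagBFP and just missed the threshold (log2 0.23, 95% interval 0.04 to 0.42, adjusted p = 0.0536). It passed with other size factors, DESeq2, no filter or a replicate block (adjusted p = 0.0459, 0.0328, 0.0166 and 0.001252), without ETV6_R399C replicate 1 (adjusted p = 0.0459) and without tagBFP replicate 3 (log2 0.32, adjusted p = 0.00746). An offset for average transcript length took it to log2 0.14 (adjusted p = 0.346).

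Set against each other, the wild-type and R399C groups differed for no member. None of 4 passed edgeR's test, none had an unadjusted p below 0.05, and DESeq2 called none, while 21.4% of all genes were called, 12.1% higher and 9.29% lower with ETV6_WT. The log2 difference of ETV6_WT over ETV6_R399C was 0.12 for MT2A (95% interval -0.07 to 0.32, adjusted p = 0.3813) and -0.01 for SLC30A1 (-0.09 to 0.07, adjusted p = 0.9235). It was -0.10 for MT1X (-0.32 to 0.11, adjusted p = 0.5076), -0.09 for MTF1 (-0.20 to 0.03, adjusted p = 0.2748) and 0.02 for the family sum (-0.17 to 0.21, adjusted p = 0.8951). These intervals leave room for differences of modest size in either direction, so the groups are not shown to be alike. The MTF1 libraries did not overlap between the forms, all of ETV6_WT being below all of ETV6_R399C, as for 16.4% of genes, against 22% the other way round.

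**Figure D3:**
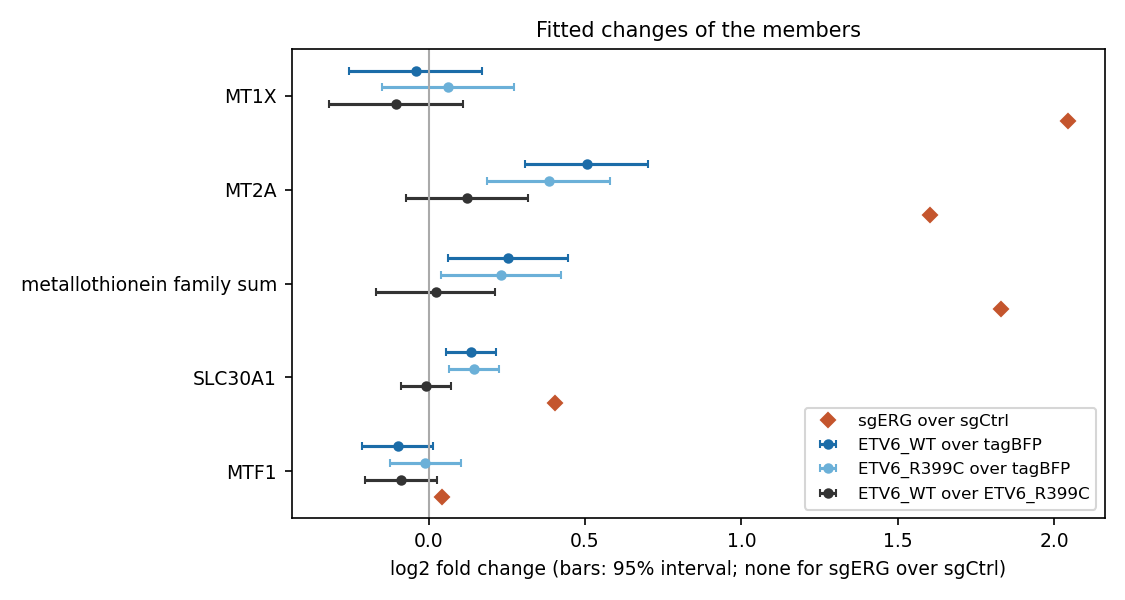
Fitted log2 fold change of each member and of the metallothionein family sum in the 4 comparisons, with 95% intervals from edgeR for those of the ETV6 experiment and no interval for sgERG over sgCtrl. MT2A lies at 0.51 and 0.38 with the ETV6 forms over tagBFP while MT1X lies at -0.04 and 0.06, and with sgERG they lie at 1.60 and 2.04.

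The balance between the 2 metallothioneins was read from the ratio of MT2A reads to MT1X reads within each library, which no scaling between libraries can move. This ratio was chosen after the values had been seen. It was 0.949, 0.990 and 0.973 in the tagBFP libraries, 1.46, 1.44 and 1.36 with ETV6_WT and 1.26, 1.16 and 1.22 with ETV6_R399C. The 3 groups did not overlap, with tagBFP lowest and ETV6_WT highest. The mean log2 ratio was higher by 0.55 with ETV6_WT than with tagBFP, by 0.32 with ETV6_R399C than with tagBFP and by 0.23 with ETV6_WT than with ETV6_R399C. Each gave p = 0.1 in a two-sided exact permutation test, and 0.1 after Benjamini-Hochberg adjustment over the 3, the smallest value that 3 libraries against 3 can give. With 3 libraries against 3 this permutation test cannot fall below 0.05, a limit of that test and not of every test. Groups that do not overlap always give its smallest value, and the ratio was chosen with the values in view. The test therefore decides nothing about the ratio.

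With repression of ERG the ratio went the other way. It was 1.23, 1.04 and 1.04 in the sgCtrl libraries and 0.793, 0.833 and 0.796 in the sgERG libraries, a difference of -0.45 in the mean log2 ratio that is given without a test. MT1X thus made up 44.9% to 49.0% of the family's reads with sgCtrl and 54.5% to 55.8% with sgERG, against 50.2% to 51.3% with tagBFP, 40.6% to 42.3% with ETV6_WT and 44.3% to 46.2% with ETV6_R399C. Within each experiment the groups did not overlap in this share. Per length, the TPM ratio of MT2A to MT1X was 0.312 ± 0.00847 with tagBFP, 0.462 ± 0.0296 with ETV6_WT, 0.391 ± 0.0138 with ETV6_R399C, 0.493 ± 0.0357 with sgCtrl and 0.370 ± 0.0101 with sgERG (SD, n = 3 each). The order within each experiment was as for reads, but the order across all 5 groups was not, so none is given.

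**Figure D4:**
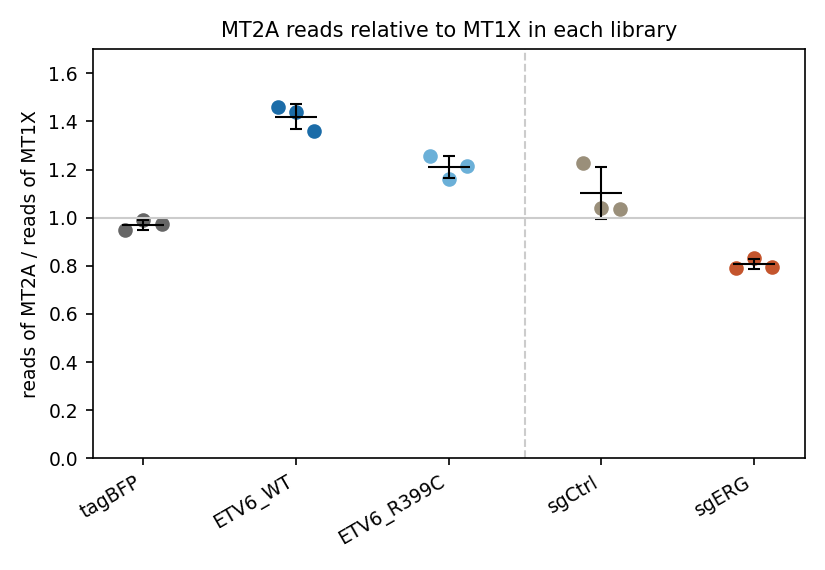
Reads of MT2A divided by reads of MT1X in each library (points), with the mean and SD of each group of 3 in black; the grey horizontal line marks equal reads and the dashed line separates the experiments. The ratio is 1.36 to 1.46 with ETV6_WT, 0.949 to 0.990 with tagBFP and 0.793 to 0.833 with sgERG.

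Most reads of each member fell on 1 transcript. MT1X-201, of 450 bases, stood at 135 ± 12.1 TPM with tagBFP and MT2A-201, of 786 bases, at 40.3 ± 4.23 TPM (SD, n = 3 each). In CRISPRi MT1X-201 went from 59.0 ± 5.63 TPM in the sgCtrl group to 245 ± 17.3 TPM in the sgERG group, and MT2A-201 at 21.8 ± 0.995 and 65.8 ± 5.37. A short non-coding transcript of MT2A, MT2A-205 of 416 bases, stood at 5.45, 5.32 and 7.70 TPM in the sgCtrl libraries and 24.5, 21.3 and 21.9 in the sgERG libraries. In the ETV6 experiment it was at 0 in 7 of 9 libraries and at 0.581 and 0.604 TPM in the others. The effective length that Salmon gave MT1X-201 was 129 to 136 bases in the ETV6 experiment and 176 to 184 in CRISPRi. The levels of the 2 control groups therefore stand side by side only, since the experiment, the vectors, the induction time and the libraries cannot be told apart.

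Members were also set against the levels of other protein-coding genes. The measure was Pearson's r over the 15 libraries of log2 CPM, each library centred on the mean of its own experiment, among genes with a mean of at least 5 CPM in both. It is a description without a p, and the sgERG libraries carry most of the spread. Closest to the family sum among 9874 genes were VDAC1, a channel of the outer mitochondrial membrane (r = 0.975), VPS37B (0.97), RASAL3 (0.969), TWF2 (0.966) and FOXO6 (0.961). VDAC1 stood at 310.5 ± 11.4 CPM with sgCtrl and 443 ± 5.08 with sgERG. Within the 9 libraries of the ETV6 experiment r was 0.872 for VDAC1, 0.758 for FOXO6, 0.584 for RASAL3, 0.519 for TWF2 and 0.349 for VPS37B. These 9 libraries also entered the ranking, so an r within them is no separate check. Closest to SLC30A1 were FOXO6 (0.978), SPIB, an ETS factor of B cells (0.974), and SELENOO (0.969). Within the ETV6 experiment r was 0.867, 0.915 and 0.896 for these genes. The genes closest to MTF1 were less close, namely USP22 (0.844), SNRNP200 (0.814) and ZNF549 (0.794). In the ETV6 libraries alone their r was 0.904, 0.923 and 0.735.

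Other genes of zinc transport were called in both directions. Exporters of the SLC30 family move zinc out of the cytosol, and 9 of them beside SLC30A1 were listed. With sgERG 1 of 6 tested fell and none rose, beside 14.6% of all genes called. It was SLC30A4, which serves vesicles and lysosomes, at 28.2 ± 1.28 CPM with sgCtrl and 20.4 ± 1.87 with sgERG (log2 -0.46 ± 0.07 SE, adjusted p = 0.002116). With ETV6_WT over tagBFP 2 of 7 fell, SLC30A3 (log2 -0.43 ± 0.09 SE) and SLC30A5 (-0.22 ± 0.04), the latter a transporter of the secretory pathway. With ETV6_R399C over tagBFP SLC30A4 rose (0.28 ± 0.07), and SLC30A9 (-0.15 ± 0.05) and SLC30A5 (-0.13 ± 0.04) fell. SLC30A4 and SLC30A3 were lower with ETV6_WT than with ETV6_R399C (log2 -0.35 ± 0.07 and -0.31 ± 0.09 SE), the 2 of 7 that differed. Of all genes tested, 36.5% were called with ETV6_WT over tagBFP, 40.9% with ETV6_R399C over tagBFP and 21.4% between the forms. The median of the list was -0.06 with sgERG, against 0.00 over all genes.

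Importers of the SLC39 family bring zinc into the cytosol, and 13 of the 14 listed were in the table, SLC39A7 not being analysed here. The shares of all genes called were 14.6% with sgERG, 36.5% with ETV6_WT over tagBFP, 40.9% with ETV6_R399C over tagBFP and 21.4% between the forms. With sgERG 1 of 10 tested rose and 2 fell. The one that rose was SLC39A10, an importer of the plasma membrane known for its part in B-cell survival. It went from 85.0 ± 2.19 CPM with sgCtrl to 118 ± 6.81 with sgERG (SD, n = 3 each), with log2 0.48 ± 0.05 SE and adjusted p = 0.0001199. SLC39A8 (log2 -0.20 ± 0.05 SE) and SLC39A6 (-0.18 ± 0.05) fell. With ETV6_WT over tagBFP 2 of 10 rose and 4 fell, led by falls of SLC39A14 (-0.30 ± 0.04), SLC39A3 (-0.29 ± 0.05) and SLC39A8 (-0.24 ± 0.05) and a rise of SLC39A13 (0.17 ± 0.04). SLC39A10 was the other that rose (0.15 ± 0.05, adjusted p = 0.02906), so this importer was called higher in both comparisons, beside SLC30A1 at 0.14 with ETV6_WT and 0.40 with sgERG. With ETV6_R399C over tagBFP SLC39A10 stood at -0.06 ± 0.05 (adjusted p = 0.3399). In that comparison 1 rose, SLC39A9 (0.15 ± 0.03), and 4 fell, among them SLC39A3 (-0.42 ± 0.05), SLC39A14 (-0.39 ± 0.04) and SLC39A6 (-0.16 ± 0.03). SLC39A10 was higher with ETV6_WT than with ETV6_R399C (log2 0.21 ± 0.05 SE), as was SLC39A6 (0.15 ± 0.03), while SLC39A8 (-0.26 ± 0.05) and SLC39A9 (-0.21 ± 0.03) were lower. Each difference given here and for the exporters passed edgeR's test at an adjusted p below 0.05, with the following exceptions. SLC39A10 did not pass with ETV6_R399C over tagBFP, and SLC30A1 carries no test with sgERG. The strand setting of the counting is not known, and all of these genes but SLC39A6 and SLC30A1 overlap another annotated gene. Values of the genes that overlap are uncertain to that extent.

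**Figure D5:**
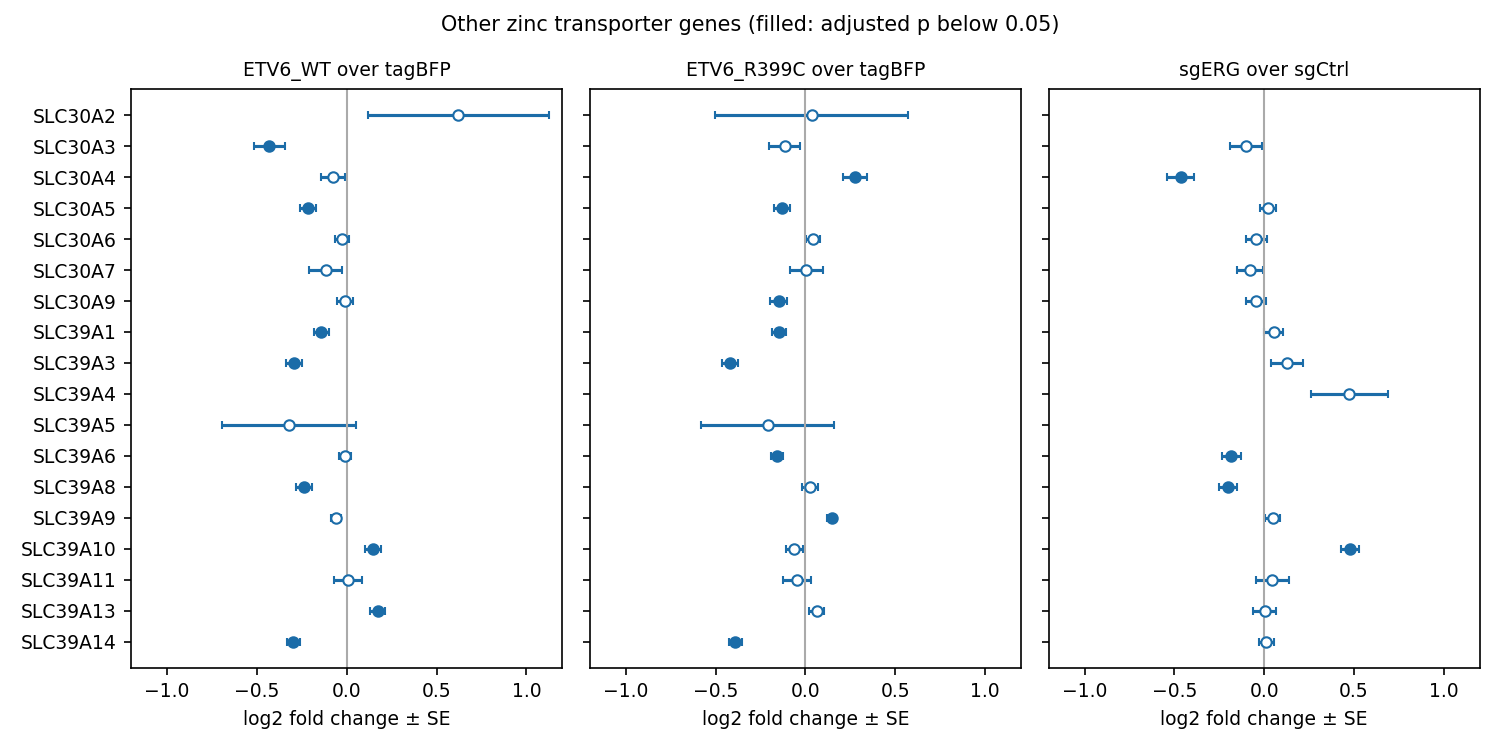
Fitted log2 fold change (points) with its SE (bars) for the tested SLC30 exporters other than SLC30A1 and the tested SLC39 importers in 3 comparisons; filled points passed edgeR's test at an adjusted p below 0.05 and genes without a point were not tested there. SLC39A10 lies at 0.48 and SLC30A4 at -0.46 with sgERG, and SLC39A3 and SLC39A14 lie below 0 with both ETV6 forms.

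The genes around the metallothionein cluster were called in both directions. Of 9 tested neighbours on chromosome 16, 1 rose and 1 fell with sgERG, HERPUD1 (log2 0.30 ± 0.05 SE) and NLRC5 (-0.17 ± 0.05), and the median was 0.02. With ETV6_WT over tagBFP 3 rose and 3 fell, with NLRC5, a regulator of MHC class I genes, at 0.76 ± 0.06 and OGFOD1 at -0.19 ± 0.03. With ETV6_R399C over tagBFP 4 rose and 3 fell, and OGFOD1 stood at -0.31 ± 0.03. Over all genes tested 36.5% were called with ETV6_WT over tagBFP and 40.9% with ETV6_R399C over tagBFP. The share was 21.4% between the forms and 14.6% with sgERG. Between the forms NLRC5 and OGFOD1 were higher with ETV6_WT (0.60 ± 0.06 and 0.12 ± 0.03) and HERPUD1 was lower (-0.53 ± 0.08). HERPUD1, NLRC5 and OGFOD1 each overlap other annotated genes, and OGFOD1 overlaps NUDT21 and BBS2 of this same list. Without the strand setting their values are uncertain to that extent.

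In the ETV6 experiment, where MT2A and SLC30A1 were called, 1 of 2 myeloid markers tested rose with each ETV6 form over tagBFP. DESeq2 called 1 with ETV6_WT and 0 with ETV6_R399C. The 5 myeloid markers summed to at most 12.8 TPM with tagBFP, 19.7 to 23.8 with ETV6_WT and 14.5 to 17.3 with ETV6_R399C, and only CSF1R among them reached 1 TPM in every library of the 3 groups. S100A8 and S100A9 were at 0. Of 9 B-lineage markers tested 8 rose with each ETV6 form over tagBFP, beside 17.6% (ETV6_WT) and 18.8% (ETV6_R399C) of all genes. The part of these markers in the values of MT2A and SLC30A1 was not tested.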

How the data were processed

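The deposited tables were made with Salmon, per the submitters' processing notes in version 0.11.3 and on hg38. Per the file headers, the authors' tables hold for each transcript its length and effective length in bases, its TPM and its estimated count. The authors left the estimated counts unscaled, whereas TPM in the deposited tables is scaled by effective length and to a fixed total per library. The strand setting is not given in the sources used here. Each table listed 167268 transcripts, of which 90.3% were named through GENCODE 29. The rest, with 6.67% to 7.56% of the reads, were left out. Estimated counts were summed per gene and rounded, and TPM was summed per gene. No pair of replicates agreed within sampling noise (chi-square per degree of freedom 2.89 to 14.68, 15 pairs).

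The test was edgeR 4.0.16 (R 4.3.3), quasi-likelihood, after TMM scaling and edgeR's own low-count filter. Benjamini-Hochberg adjustment ran over the whole table, with calls at 0.05. The 9 libraries of the ETV6 experiment entered 1 fit and the 6 of CRISPRi another. The SE is the log2 fold change divided by the square root of F, and so restates the test. The family sum replaced the family's rows in the same table. The members, lists and alternatives were chosen with earlier results of these data known. Named are the members and their family, ERG and ETV6, up to 4 genes per list and comparison with the smallest p among those called, and the genes most like the family sum, SLC30A1 and MTF1. Marker genes are also named, as values, and VPREB1, COL1A1 and CSF1R were singled out after their values were seen. The lists cover zinc exporters and importers, copper, iron, NRF2 targets, heat shock, glucocorticoid response and neighbours on chromosome 16.

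The fit was run before use on simulated counts with 200 genes changed, in 5 draws for each of 2 comparisons. The spread of these counts was the one the same fit had estimated from the real libraries. False calls made up 6.7% of calls with ETV6_WT over tagBFP and 7.1% with sgERG over sgCtrl. With ETV6_WT over tagBFP the fit recovered 37.6% of 1.2-fold, 64.8% of 1.5-fold and 81.2% of 2-fold changes. In the real data 36.5% of genes were called in that comparison and 14.6% with sgERG. The simulated shares need not hold there. Alternatives were other size factors, DESeq2 1.42.0, no filter, 2 groups in the fit, a transcript length offset, a replicate block and leaving out each library.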

Additional observations from a re-analysis of the deposited data

How the results depend on the processing

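MT2A kept its direction and its side of the threshold in all 12 alternatives for each comparison of the ETV6 experiment, and so did SLC30A1 with ETV6_R399C over tagBFP. With ETV6_WT over tagBFP the members called went from 2 to 1 with DESeq2, with no filter and over the libraries left out (1 to 2); SLC30A1 was the one lost in each setting, and a length offset lost it too (adjusted p = 0.0649). The length offset moved the genes called to 2913, 3427 and 1236 in the 3 comparisons of the ETV6 experiment, from 5202, 5826 and 3044, and took the family sum with ETV6_WT to 0.11 (adjusted p = 0.4719). Leaving out a library gave that sum 0.18 to 0.33, and 0.15 to 0.32 with ETV6_R399C, where the length offset gave 0.14 (adjusted p = 0.346). With ETV6_R399C the family sum passed with other size factors (0.24), DESeq2 (0.24) and no filter (0.24). Between the forms the family sum changed sign with 2 groups in the fit (-0.0005), with the length offset (-0.0278) and over the libraries left out (-0.0468 to 0.1011), namely without ETV6_WT replicate 3 and ETV6_R399C replicates 1 and 2. MT1X changed sign with ETV6_WT without tagBFP replicate 3 (0.0310, range -0.1217 to 0.0310) and with ETV6_R399C without ETV6_R399C replicate 3 (-0.0155, range -0.0155 to 0.1559). MTF1 changed sign with ETV6_R399C under other size factors (0.0001) and without ETV6_R399C replicate 1 or 2 or tagBFP replicate 1 (range -0.0541 to 0.0361). It fell with ETV6_WT under the length offset (-0.49, adjusted p = 0.0299) and without tagBFP replicate 3 (-0.16, adjusted p = 0.0268), and under the offset stood at -0.38 with ETV6_R399C (adjusted p = 0.0667) and -0.16 with sgERG. The offset follows MTF1-202, of 413 bases, which had 1.22 ± 1.34 TPM with tagBFP and 0 with both ETV6 forms. The genes called ranged from 2008 to 3110 between the forms (2009 without ETV6_WT replicate 2, 2008 without ETV6_R399C replicate 1) and from 1160 to 2302 with sgERG (1160 and 1162 without sgCtrl replicates 1 and 3) when a library was left out. With sgERG, MT1X (1.95 to 2.11), MT2A (1.54 to 1.67), SLC30A1 (0.39 to 0.43) and the family sum (1.76 to 1.92) kept their direction. DESeq2 called 1 exporter in place of 3 with ETV6_R399C over tagBFP and 1 in place of 2 between the forms, and 1 neighbour in place of 2 with sgERG. Where no construction is named, the cause was not tested.

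Over all genes, replicate numbers showed no pairing of the libraries. The deviations of same-numbered libraries correlated at -0.077 to 0.098 (12 pairs) and those of others at -0.089 to 0.069 (24 pairs). A correlation over all genes cannot decide on pairing at single genes. With the replicate block the family sum with ETV6_R399C passed the threshold (0.23, adjusted p = 0.001252) and no other member call changed. In edgeR's test with ETV6_WT the block gave the family sum adjusted p = 0.000813, against 0.04032 without it. Adjusted p of MT2A went from 0.001008 to 8.189e-05 and that of SLC30A1 from 0.01234 to 0.02187. MT1X and MT2A were each highest in replicate 3 in 4 of 5 groups. MT1X had 361 to 1292 reads per library, and counting error is part of its SE; how much was not tested.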

Other observations

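Other stimuli known to act on metallothioneins were followed through lists, with values and no explanation. Beside the counts below, the shares of all genes called were 36.5% with ETV6_WT over tagBFP and 40.9% with ETV6_R399C over tagBFP. They were 21.4% between the forms and 14.6% with sgERG. Of NRF2 targets and their regulators, 1 of 13 tested rose and 4 fell with sgERG. SLC7A11, the cystine importer, fell 2.34-fold from 66.0 ± 4.20 to 28.2 ± 2.48 CPM (SD, n = 3 each, log2 -1.23 ± 0.07 SE, edgeR adjusted p = 1.97e-06). PRDX1 fell (log2 -0.65 ± 0.04 SE), GCLM fell (-0.36 ± 0.06) and GSR rose (0.39 ± 0.06). With ETV6_WT over tagBFP 2 of 12 rose and 5 fell, with SLC7A11 at log2 -1.07 ± 0.05 SE. The 2 that rose were the regulators NFE2L2 (0.23 ± 0.04) and KEAP1 (0.12 ± 0.03). With ETV6_R399C over tagBFP 1 rose, the regulator NFE2L2 (0.22 ± 0.04), and 5 fell, led by NQO1 (-0.49 ± 0.08). Between the forms 2 were higher and 2 lower with ETV6_WT, and SLC7A11 stood at -1.18 ± 0.05 (adjusted p = 2.786e-08).

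Of glucocorticoid-response genes, 2 of 11 rose and 2 fell with ETV6_WT over tagBFP, and 5 rose and 1 fell with ETV6_R399C. TSC22D3, a leucine-zipper gene induced by glucocorticoids, went from 47.6 ± 1.46 CPM in the tagBFP group to 98.8 ± 5.09 CPM for the wild type and 162 ± 15.1 CPM for R399C (SD, n = 3 each), and it was lower with ETV6_WT than with ETV6_R399C (log2 -0.72 ± 0.06 SE, edgeR adjusted p = 1.2e-05). Between the forms 1 of 11 was higher and 3 lower with ETV6_WT. With sgERG 2 of 10 rose and 3 fell, and TSC22D3 fell (log2 -0.33 ± 0.04 SE).

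Of heat-shock genes, 1 of 9 rose and 5 fell with ETV6_WT over tagBFP, and 1 rose and 6 fell with ETV6_R399C. HSPE1, a mitochondrial co-chaperone, stood at log2 -0.47 ± 0.08 and -0.80 ± 0.08 SE, and HSPB1 rose (0.45 ± 0.03 and 0.33 ± 0.04). Between the forms 4 of 9 were higher with ETV6_WT and none lower. With sgERG edgeR called 0 of 10, 2 had an unadjusted p below 0.05 and DESeq2 called 0.

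Of copper genes, 1 of 11 rose and 3 fell with ETV6_WT over tagBFP, 3 fell with ETV6_R399C and 1 of 12 rose with sgERG. Superoxide dismutase SOD1 went from 194 ± 13.1 CPM in the tagBFP group to 159 ± 5.52 CPM for the wild type and 145 ± 9.56 CPM for R399C (SD, n = 3 each). Between the forms edgeR called 0 of 11, 2 had an unadjusted p below 0.05 and DESeq2 called 0. Of iron genes, 2 of 8 fell with ETV6_WT over tagBFP, and 1 rose and 4 fell with ETV6_R399C, among them the transferrin receptor TFRC (log2 -0.47 ± 0.06 and -0.40 ± 0.06 SE). Between the forms 2 were higher and 1 lower. With sgERG edgeR called 0 of 8, 2 had an unadjusted p below 0.05 and DESeq2 called 0. NCOA4 was not analysed here.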
